A study of Mus musculus with 15 samples.

Results

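The genes described here are the 3 E protein genes measured in these CD8+ T cells, Tcf3, Tcf12 and Tcf4, and the Id genes Id2 and Id3. They were taken by symbol and matched through GENCODE M21 to 5 of the 55536 genes in the deposited gene table, to 103 of 141862 transcripts in the transcript table and to 119 of 138940 splicing events in the table of percent-spliced-in (PSI) values. The study asked how signals through CD134 (OX40) and CD137 (41BB), 2 costimulatory receptors of the TNF receptor superfamily, change the RNA of T cells that see antigen in vivo. Poly(A) RNA was sequenced from sorted CD8+ T cells of spleen and lymph nodes. In the 5 libraries of the Ag group, recipients had been given antigen alone (the SIINFEKL peptide with rat IgG). In the 5 libraries of the Ag+Costim group, they had been given antigen with agonist antibodies to OX40 (clone OX-86) and 41BB (clone 3H3). Both groups shared the rest of the design. The donor cells carried the OT-I T cell receptor transgene, which recognises that peptide, on a Rag-deficient background (strain label OT-1 Tg C57BL/6J). They were transferred into wild-type C57BL/6J mice and collected at day 4 by the labels, so each group followed 1 receptor of fixed specificity and the recipients kept their own lymphocytes. The labels give neither age nor sex. A Naive group of 5 libraries, from OT-I cells that were not transferred, was not analysed here.

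E proteins are basic helix-loop-helix (bHLH) transcription factors that bind E-box DNA as dimers. Tcf3 encodes E2A, Tcf12 encodes HEB and Tcf4 encodes E2-2. Id proteins have the helix-loop-helix but no basic region, so they pair with E proteins and keep them off DNA. In CD8+ T cells Id2 is known for its part in effector cells and Id3 for its part in cells with memory potential, and both restrain E protein activity. Tcf4 should not be confused with Tcf7 and Lef1, HMG-box factors of another family. Tcf3 makes E12 and E47 from a choice between exons that each encode the bHLH domain, and E47 is known to bind DNA as a homodimer more readily than E12. Tcf12 has an internal start, the source of the HEBAlt form, and several annotated 3′ ends.

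In the mm10 build, Tcf3 (ENSMUSG00000020167.14) lies on the minus strand at chr10:80409514-80433647, and Tcf12 (ENSMUSG00000032228.16) on the minus strand at chr9:71842688-72111871. Id2 (ENSMUSG00000020644.9) lies on the minus strand at chr12:25093799-25097140, and Id3 (ENSMUSG00000007872.3) on the plus strand at chr4:136143497-136145755. Of the annotated genes inside these spans, 11 in Tcf12 and 1 in Tcf4, no exon overlapped an exon of the host gene. The RNA was not sequenced with strand.

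The E12 and E47 exons are shown first because the Tcf3 results turn on telling them apart. The E12 exon (chr10:80412827-80413062, 236 bases) is upstream of the E47 exon (chr10:80410398-80410621, 224 bases). They were told apart by the amino acids that their coding frames spell. The lines below give 30 bases of coding sequence from within the basic region in each exon, 5′ to 3′ on the minus strand. They lie at chr10:80412960-80412989 for E12 and chr10:80410531-80410560 for E47, with the 8 bases that differ between them in capitals:
E12: aataaTgcCcgAgagcgCCtgcgGgtCcgC
E47: aataaCgcTcgGgagcgGGtgcgCgtGcgG

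The 4 annotated Tcf12 ends used below are marked by the last 30 bases before each of them, 5′ to 3′ on the minus strand of chromosome 9, with a poly(A) signal hexamer (AATAAA or ATTAAA) in capitals where one was found. The 3′ UTR, counted over spliced sequence from the stop codon, is 1060 bases long in Tcf12-218 (last 30 bases at chr9:71845512-71845541), 1849 in Tcf12-221 (chr9:71844723-71844752), 2304 in Tcf12-201 (chr9:71844268-71844297) and 3884 in Tcf12-202 (chr9:71842688-71842717). One hexamer lay in the last 30 bases of Tcf12-202 and none in those of the other ends, though Tcf12-201 held 1 a little further upstream. Of 52183 distinct annotated ends of protein-coding transcripts, 42.1% held either hexamer in the last 30 bases:
Tcf12-218: gatgacttttcctggtgagtctccgggaca
Tcf12-221: ttatttttcactgtagctagtcttttatac
Tcf12-201: atgtgccatccttttttttaacatagtaaa
Tcf12-202: tgagtgctgggATTAAAggcatgtgcacca

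The libraries differed before any comparison. Totals of estimated counts (in M counts) ran from 259.6 to 449.4 in Ag apart from Ag replicate 3, with 59.6, and from 332.3 to 639.1 in Ag+Costim. Genes with any count numbered 48058, 21779, 51778, 40441 and 20714 in Ag replicates 1 to 5, and between 28727 and 30340 in Ag+Costim. All 9 CD8 T cell markers were detected in every library, with a summed level of 5382 to 11088 CPM (counts scaled to library size) in Ag and 7178 to 8820 CPM in Ag+Costim. The 15 cell cycle genes listed summed to 1095, 8990, 5536, 1156 and 10128 CPM in Ag replicates 1 to 5, and to between 8849 and 11254 CPM in Ag+Costim. So Ag replicates 1 and 4 held far less cell cycle RNA than the other libraries, and that measure is given again where a member moved with it. Erythroid markers reached 1103 CPM in Ag replicate 3 and at most 126 CPM elsewhere. In bulk RNA, fewer cells with a transcript and less of it per cell cannot be told apart.

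Per unit of transcript length, the Id genes and Tcf3 were the abundant members and Tcf4 was scarce. In TPM (transcript counts divided by length and scaled to a common sum), Ag libraries held 455 ± 292 TPM of Id3 (mean ± SD, n = 5), 334 ± 188 of Id2, 112 ± 20.7 of Tcf3, 27.7 ± 13.8 of Tcf12 and 5.59 ± 4.84 of Tcf4. In Ag, the ranges of Id3 and Id2 overlapped, as did those of Tcf12 and Tcf4, whereas the highest Tcf3 library (133 TPM) lay just under the lowest Id2 library (134 TPM). In Ag+Costim the order was Id2 (451 ± 47.4 TPM, n = 5), Id3 (248 ± 46.2), Tcf3 (154 ± 6.86), Tcf12 (25.9 ± 2.38) and Tcf4 (3.78 ± 0.65), and no neighbours in that order overlapped. Id1 and Id4, the remaining Id genes, were scarce, with at most 0.944 and 2.80 CPM in any library.

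**Figure D1:**
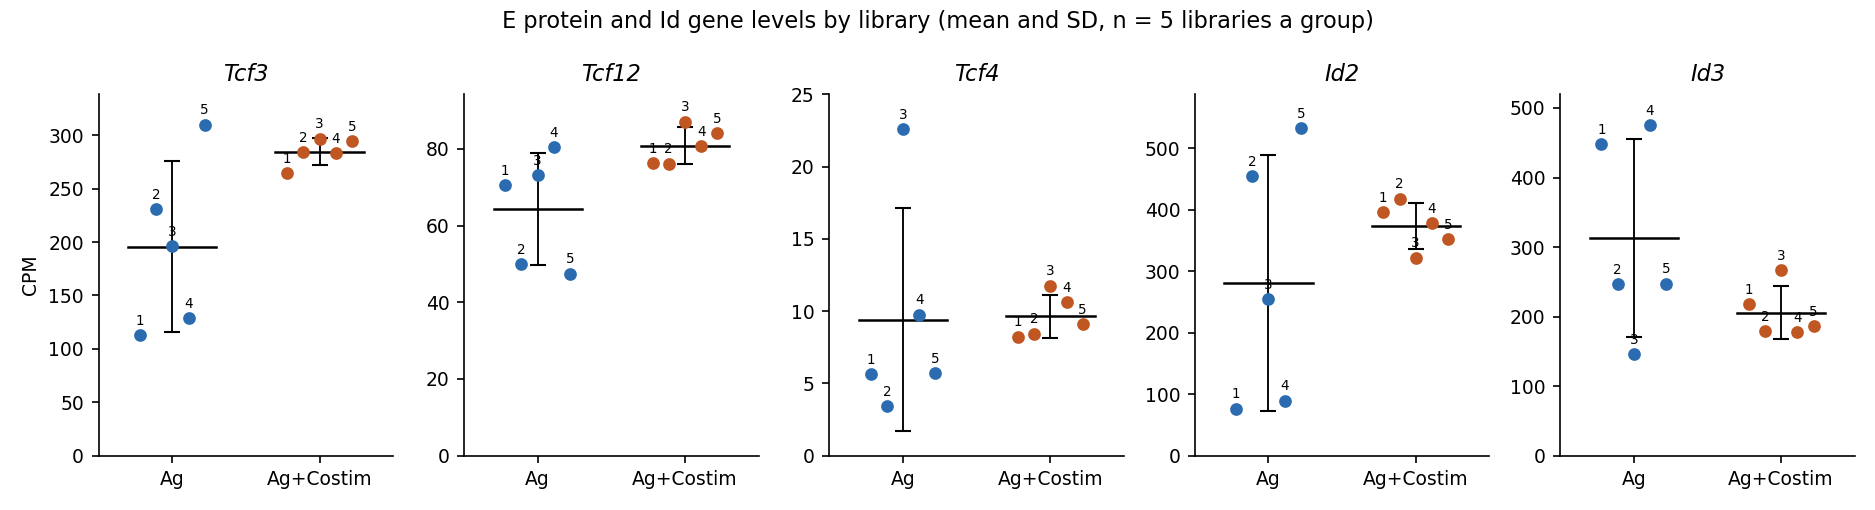
Level of each gene in CPM (y axis, from 0, a scale of its own in each panel) in the Ag and Ag+Costim libraries. Points are libraries with their replicate number, lines are means and bars SDs (n = 5 a group). The Ag+Costim points lie close together in each panel, while Ag replicates 1 and 4 are low for Id2 and Tcf3 and high for Id3.

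None of the 5 genes passed the test between the groups, and for each of them the groups overlapped. edgeR's quasi-likelihood test with Benjamini-Hochberg adjustment over 24262 genes called 0 of the 5 members and 0.0% of all genes. At an unadjusted p under 0.05, the same fit held 0 of the 5 members and 4501 genes (18.6%). With DESeq2 size factors or upper-quartile scaling it held 1 member, beside 4811 or 5103 genes, and with total counts 2, beside 5465. With a library left out it held 0 to 2 members, beside 2766 to 9197 genes. Other tools gave other answers. DESeq2's Wald test called 6214 genes (14.3% of those it tested) and 0 of the 5 members. limma voom with a weight for each library, which gave Ag replicates 2 and 5 the least weight, called 12670 genes (52.2%) and 3 of the 5 members: Id2 at a log2 fold change of 1.93, Tcf3 at 1.12 and Id3 at -1.01 (adjusted p = 4.6e-05, 3.2e-05 and 0.00226). The study describes the libraries of a group as biological replicates from separate mice, which the labels do not state. Of all genes tested, 5.6% did not overlap between the groups (4.48% higher and 1.13% lower in Ag+Costim), and 0 of the 5 members were among them. Without Ag replicate 4, 1 of the 5 stood higher without overlap, as did 1336 of 25053 genes. Without Ag replicate 5, 1 of the 5 did, as did 1904 of 27169. The balance of directions depended on the scaling and the libraries, with 1086 genes higher and 273 lower here, 360 and 553 with upper-quartile scaling, and 1904 and 1626 without Ag replicate 5. The libraries of Ag were more spread than those of Ag+Costim, a difference that was not tested. The coefficient of variation in Ag and in Ag+Costim was 41.0% and 4.47% for Tcf3, 73.9% and 10.03% for Id2, and 22.9% and 5.94% for Tcf12. All genes at 10 CPM or more showed the same contrast, with a median of 32.2% in Ag and 8.54% in Ag+Costim. Id2 varied more in Ag than 95.5% of those 8626 genes, and Tcf12 more than 26.3%.

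Id2 was measured at 76.4, 455, 254, 89.1 and 533 CPM in Ag replicates 1 to 5, and at 396, 418, 322, 378 and 352 CPM in Ag+Costim. Ag replicates 1 and 4 were below every other library and Ag replicates 2 and 5 above every Ag+Costim library. The fitted log2 fold change was 0.41 ± 0.49 (SE, adjusted p = 0.601, edgeR), with values from 0.17 without Ag replicate 1 to 0.78 without Ag replicate 5, and an exact permutation test of the 10 values gave p = 0.286 (two-sided). A TMM scaling was used throughout, and with other scalings of the counts (size factors, upper quartile, totals) the direction was the same.

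Id3 was measured at 448, 247, 146, 475 and 247 CPM in Ag and at 218, 179, 267, 177 and 186 CPM in Ag+Costim. The same 2 Ag libraries that were lowest for Id2 were highest for Id3, and Ag replicate 3 was below every Ag+Costim library. The fitted log2 fold change was -0.61 ± 0.30 (SE, adjusted p = 0.287, edgeR; exact permutation p = 0.206).

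The opposite course of the Id genes shows most directly in their ratio, which does not depend on scaling. The log2 ratio of Id2 to Id3, on CPM + 1, was -2.54, 0.88, 0.80, -2.40 and 1.11 in Ag and 0.86, 1.22, 0.27, 1.09 and 0.91 in Ag+Costim. In 8 of the 10 libraries the ratio was above 0 on this scale, and Ag replicates 1 and 4 stood alone below it (linear ratios of 0.172 and 0.189). The means, -0.43 ± 1.86 and 0.87 ± 0.36 (SD, n = 5 each), differed by 1.302 with an exact permutation p of 0.230. The difference was 0.78 without Ag replicate 1 and 0.81 without Ag replicate 4. Ag replicates 1 and 4 were also the libraries with the least cell cycle RNA, at 1095 and 1156 CPM against 5536 or more elsewhere, and the part of cell division in the Id ratio was not tested.

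**Figure D2:**
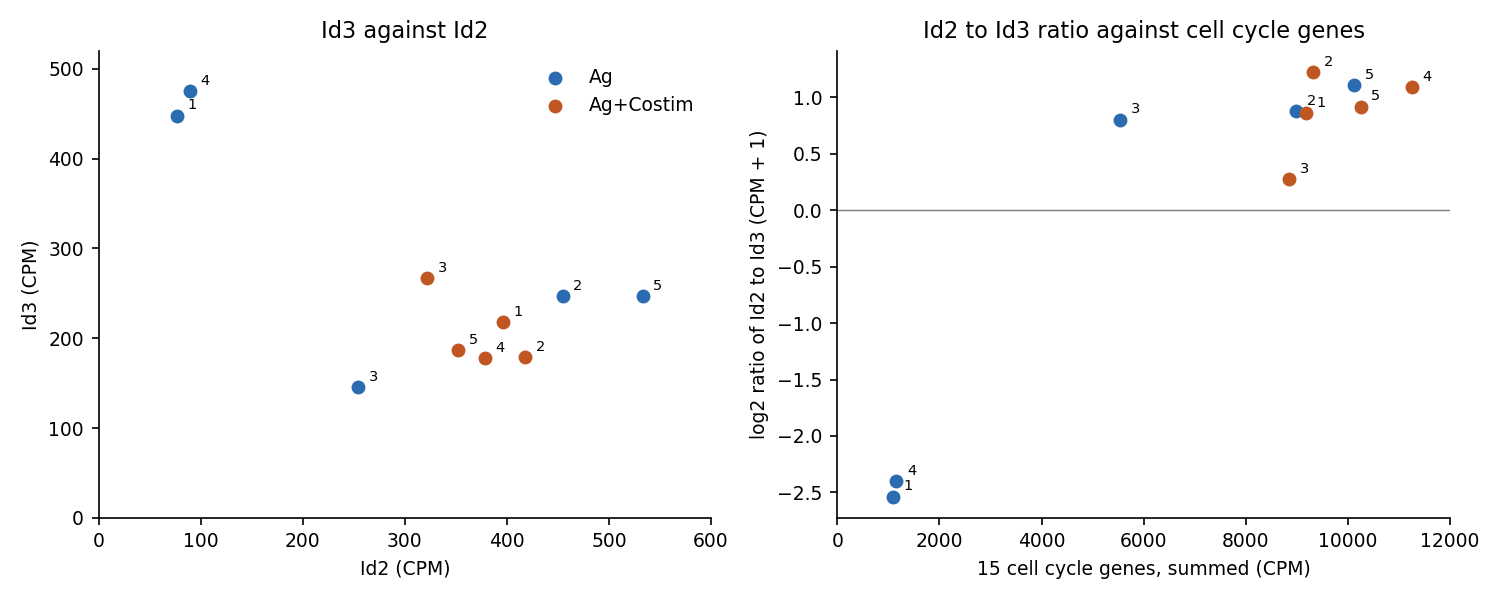
Left, Id3 against Id2 in CPM, a point for each library with its replicate number. Right, the log2 ratio of Id2 to Id3 against the summed CPM of 15 cell cycle genes. Ag replicates 1 and 4 sit alone, at ratios of -2.54 and -2.40 and at 1095 and 1156 CPM of cell cycle genes, and the other 8 libraries hold ratios between 0.27 and 1.22.

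Tcf3 was measured at 112, 231, 196, 129 and 310 CPM in Ag and at 265, 284, 297, 283 and 294 CPM in Ag+Costim. In Ag, 4 libraries were below every Ag+Costim library, and Ag replicate 5 was above them all. The fitted log2 fold change was 0.54 ± 0.26 (SE, adjusted p = 0.276, edgeR), and the exact permutation test gave p = 0.0476, 1 of 5 such tests over these genes, before any adjustment for them. That p was above 0.05 when Ag replicate 1 or 4 or any single Ag+Costim library was left out (0.0635 to 0.0952). Ag replicates 1 and 4 were again the 2 lowest.

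Tcf12 was measured at 70.5, 49.98, 73.1, 80.5 and 47.5 CPM in Ag and at 76.3, 76.2, 87.1, 80.8 and 84.1 CPM in Ag+Costim. In Ag, 4 libraries were below every Ag+Costim library and the remaining one, replicate 4, was within their range. The fitted log2 fold change was 0.33 ± 0.17 (SE, adjusted p = 0.286, edgeR; unadjusted exact permutation p = 0.0317, and 0.0556 to 0.119 when any single Ag+Costim library was left out). It was -0.01 when counts were scaled by their totals alone, and per unit of length the group means were 27.7 TPM in Ag and 25.9 TPM in Ag+Costim, so its direction depended on the scale. Unlike Tcf3, Tcf12 was lowest in Ag replicates 2 and 5. The log2 ratio of Tcf12 to Tcf3 was -0.67, -2.18, -1.41, -0.67 and -2.68 in Ag, on both sides of the Ag+Costim values of -1.89 to -1.76. The means were -1.52 ± 0.90 and -1.80 ± 0.05 (SD, n = 5 each; exact permutation p = 0.524).

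Tcf4 (ENSMUSG00000053477.17) lies on the plus strand at chr18:69343356-69689079. It was measured at 5.63, 3.41, 22.6, 9.74 and 5.69 CPM in Ag and at 8.24, 8.45, 11.8, 10.6 and 9.08 CPM in Ag+Costim. Ag replicate 3 was above every other library. The fitted log2 fold change was 0.04 ± 0.44 (SE, adjusted p = 0.964, edgeR; exact permutation p = 0.563), and its sign turned with the scaling. Tcf4 is also a known factor of plasmacytoid dendritic cells and is present in B cells. The 7 B cell markers summed to 137, 34.2, 353, 190 and 40.2 CPM in Ag replicates 1 to 5 and to between 30.6 and 51.4 CPM in Ag+Costim, with up to 2 of the 7 at 0 in a library. The 7 plasmacytoid dendritic cell markers summed to 104 to 204 CPM in Ag, highest in replicate 3, and to 137 to 176 CPM in Ag+Costim, with at most 1 of the 7 at 0. Their mean log2(CPM + 1) was 3.28, 2.28, 4.08, 3.05 and 2.21 in Ag replicates 1 to 5 and 2.15 to 2.48 in Ag+Costim. The median of their log2 fold changes was -2.93, with 2 of the 7 above 0. The cells had been sorted as CD8+ CD45.1+ Vα2+ Vβ5+. The part of B cells and plasmacytoid dendritic cells in the Tcf4 level was not tested.

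Summed over the family, CPM of E protein genes against CPM of Id genes gave ratios of 0.361, 0.406, 0.730, 0.389 and 0.466 in Ag and 0.569, 0.619, 0.672, 0.675 and 0.720 in Ag+Costim. Ag replicate 3, the shallowest, had the highest ratio of all, and the 4 other Ag libraries were below every Ag+Costim library. CPM is not divided by transcript length, and the main E protein transcripts are longer than those of the Id genes. So these ratios compare libraries and are not ratios of molecules, and per unit of length the E protein side is smaller. No test was made of this sum.

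The genes whose levels followed each member most closely over the 10 libraries, among 8626 genes at 10 CPM or more, were taken by Pearson's r of log2(CPM + 1), as a description with no test. For Id2 they were Gm14005, 2810408I11Rik and Cdkn3, a phosphatase of the cell cycle kinase Cdk2 (r = 0.996, 0.995 and 0.995). For Id3 they were Fbxo25, Rhoh, a GTPase needed for T cell receptor signals, and Slfn2, known from T cell quiescence (0.989, 0.982 and 0.982). For Tcf3 they were Rbbp4, a histone-binding chromatin protein, Mbnl3, a splicing regulator, and Prmt1, an arginine methyltransferase (0.995, 0.992 and 0.992). For Tcf12 they were Myh9, a non-muscle myosin, Pcnx3 and Usp19 (0.988, 0.964 and 0.962). The points share their libraries and scaling, and the 2 libraries farthest from the median are Ag replicates 1 and 4 for Id2, Id3 and Tcf3. Without those 2 the correlations lay between 0.940 and 0.975. For Tcf12, leaving out Ag replicates 2 and 5 gave 0.910 for Myh9, 0.545 for Pcnx3 and 0.856 for Usp19.

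The pathway around these genes was read from fixed lists, and in each list edgeR called 0 genes at an adjusted p under 0.05; at an unadjusted p under 0.05 the lists held between 0 and 7 genes. Over all 24262 genes, the fitted changes had a median of -0.32. Over the 8626 genes at 10 CPM or more their median was 0.24, and 11.3% (976 genes) stood higher in Ag+Costim without overlap. With upper-quartile scaling that median was 0.017 and 321 of 8636 genes stood higher without overlap, and with total counts the median was -0.0025. Other scalings moved the median of all genes to between -0.65 and -0.48. List medians should be read beside both medians, that of all genes and that of genes at 10 CPM or more.

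Among 16 genes of signals known to control Id genes, 4 did not overlap between the groups and the median log2 fold change was -0.12. Smad3, which carries TGF-beta signals to the nucleus, was at 16.6, 46.8, 33.3, 17.1 and 31.8 CPM in Ag and at 54.6 to 72.9 CPM in Ag+Costim, a fitted log2 difference of 1.11 ± 0.28 (SE, edgeR adjusted p = 0.169). Stat5a and Stat5b, which act below cytokine receptors, held means of 64.3 and 140 CPM in Ag against 97.0 and 194 CPM in Ag+Costim. Irf4, induced by T cell receptor signals, held means of 17.0 and 31.0 CPM. With other scalings 2 or 3 of the 4 stayed apart.

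Of 10 cofactors and turnover factors of E proteins, only Skp2, a ubiquitin ligase subunit and a cell cycle gene, did not overlap, with 6.496 to 21.6 CPM in Ag and 26.4 to 39.5 CPM in Ag+Costim (log2 fold change 1.19 ± 0.32 SE, edgeR adjusted p = 0.194). Of the 13 other Id and bHLH partner genes, 8 were tested, and 1, Msc, a bHLH repressor named here after its values were seen, did not overlap, at means of 0.413 and 3.11 CPM. With DESeq2 size factors, with upper-quartile scaling or without Ag+Costim replicate 1, every tested gene of this list overlapped. The median log2 fold change of the 8 was -1.11, with 2 of the 8 above 0. Without Ag replicate 3, which held 1103 CPM of erythroid markers, it was 0.40, with 5 of 9 tested genes above 0.

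Target, effector and memory genes tied to these factors overlapped between the groups. Of 20 E protein target genes in lymphocytes, 19 were tested, 0 did not overlap, 6 had a log2 fold change above 0 and the median was -0.26. The 10 genes on the side of Id2 in effector cells held a median of 0.05, with 5 of them above 0, and no stable direction: the median was -0.11 to -0.00 with the other scalings, -0.19 without Ag replicate 1, 0.40 without Ag replicate 3, 0.69 without Ag replicate 5 and 1.72 in limma voom. The 12 genes on the side of Id3 in memory precursors held a median of -0.53, with 2 of them above 0. The 4 HMG-box TCF and LEF genes held a median of -0.28, with 1 above 0. The Id3-side list shares genes with the E protein target list and with the HMG-box list, so these medians are not separate readings.

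Tcf3 exon choice had nearly the same PSI in both groups. In the deposited PSI table, with 1 value a group and so no test, the E12 exon was included at 0.261 in Ag and 0.260 in Ag+Costim, and the E47 exon at 0.725 and 0.727. In the transcript counts, the share of E12 among transcripts with either exon (5 with only E12, 7 with only E47) was 45.5, 54.4, 49.0, 44.7 and 44.8% in Ag and 50.7, 52.8, 48.5, 49.0 and 50.5% in Ag+Costim. The groups overlapped, and the difference was 2.65 percentage points (exact permutation p = 0.230). Without Ag replicate 2 it was 4.33 points (exact p = 0.0159), so that library decided on which side of 0.05 the test fell. PSI thus gave E12 a smaller part of Tcf3 than the transcript counts did, in both groups, and the cause of that gap was not tested. Of all 32 Tcf3 events, 0 had a PSI difference over 0.1.

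The transcripts that held a mean share of 0.1 or more of Tcf3 were Tcf3-202 (31.97% in Ag and 28.3% in Ag+Costim, an E47 form), Tcf3-210 (23.3% and 22.7%, an E12 form), Tcf3-201 (18.9% and 24.0%) and Tcf3-204 (14.3% and 15.9%). Tcf3-201 had the largest difference of the 4, 5.01 points (unadjusted exact permutation p = 0.0397, 1 of 22 shares tested, and 0.0635 to 0.0873 when any single Ag library was left out). The 5 genes listed as factors of the E12 and E47 choice, splicing regulators of the PTB, hnRNP and SR families, all had a log2 fold change above 0 (4 of 5 with upper-quartile or total scaling), with a median of 0.52. All 5 overlapped between the groups.

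**Figure D3:**
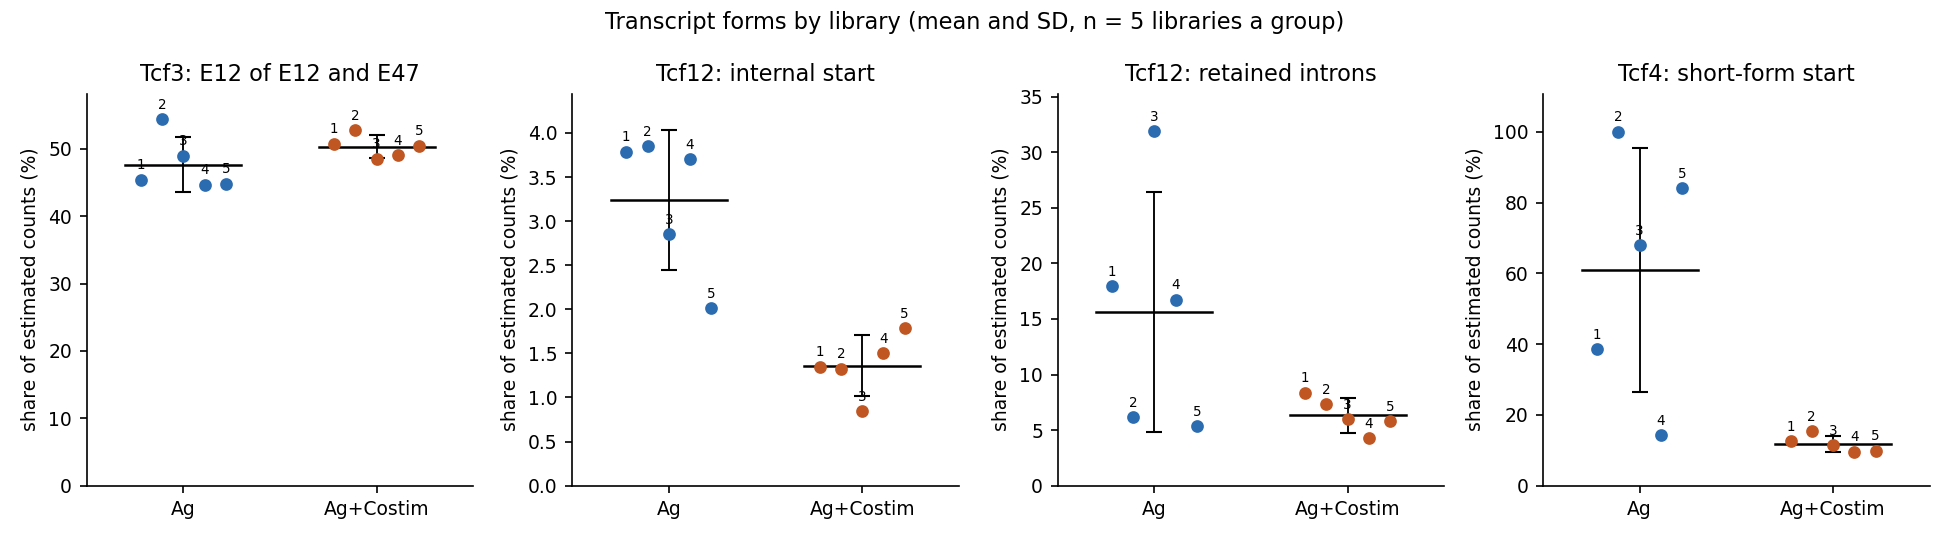
Share of a gene's estimated counts, in percent (y axis, from 0), on E12 among E12 and E47 transcripts of Tcf3, on internal-start and on retained-intron transcripts of Tcf12, and on short-form starts of Tcf4. Points are libraries with replicate numbers, lines means, bars SDs (n = 5 a group). Shares on the internal start of Tcf12 do not overlap (2.01 to 3.85% in Ag, 0.847 to 1.79% in Ag+Costim), and the other panels overlap.

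Over all splicing events of the 5 genes, 8 of 119 (6.72%) had a PSI difference over 0.1, beside 5.87% of all 138940 events. There were 4 in Tcf12 and 4 in Tcf4. None of their 56 core exons was among them, where 1.4% of the core exons of all genes were. The single events of Id2 and Id3 had PSI values between 0.9997 and 0.9999 in both groups, and Id2-201 and Id3-201 held means of 91.9% and 98.7% of their gene's counts in Ag and 93.2% and 98.7% in Ag+Costim.

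In Tcf12, the largest of these differences were at the 3′ end. Whippet, the program behind the PSI table, splits the last exon into 5 tandem ends whose PSI values sum to about 1. The end with a 3′ UTR of 1849 bases (segment chr9:71844723-71845511) went from 0.0646 in Ag to 0.366 in Ag+Costim. The end at 2299 bases (chr9:71844273-71844722) went from 0.650 to 0.481, and the end 5 bases further on (chr9:71844268-71844272) from 0.236 to 0.106. The most proximal end, at 1060 bases, stood at 0.0357 and 0.0329, and the most distal, at 3884 bases, at 0.0151 and 0.0144. Weighted by PSI, the mean 3′ UTR was 2251 bases in Ag and 2117 bases in Ag+Costim. Differences over 0.1 are common at such ends: 28.8% of 14545 tandem ends of all genes had one, beside 3 of the 5 of Tcf12, and 92.3% of tandem ends differed by less than the 0.301 of the 1849-base end. Each value stands for a whole group, so the spread between libraries is not known.

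Per library, the transcript counts put the Tcf12 ends elsewhere. Tcf12-221, which has the 1849-base end, was listed at 0 in all 10 libraries. Tcf12-202, with the most distal end, held 59.9, 33.8, 43.8, 27.9 and 69.2% of Tcf12 counts in Ag and 68.2, 56.8, 70.7, 71.4 and 43.3% in Ag+Costim (difference 15.2 points, exact permutation p = 0.167). The 4 transcripts that end near Tcf12-201 held 22.3, 60.2, 10.2, 55.4 and 21.96% in Ag and 17.9, 32.7, 15.01, 20.3 and 49.0% in Ag+Costim (exact p = 0.556). The groups overlapped for both. So the end that the PSI values gave 0.0151 of the gene was the one to which the transcript estimates gave 46.9% and 62.1%. The cause was not tested. The study reported a 3′ UTR change of Tcf12 from both Whippet and DaPars, another program for poly(A) sites. It gave this change among events filtered for a difference between control and Tardbp-knockout cells, both under antigen with costimulation. The DaPars values and the knockout data were not used here.

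**Figure D4:**
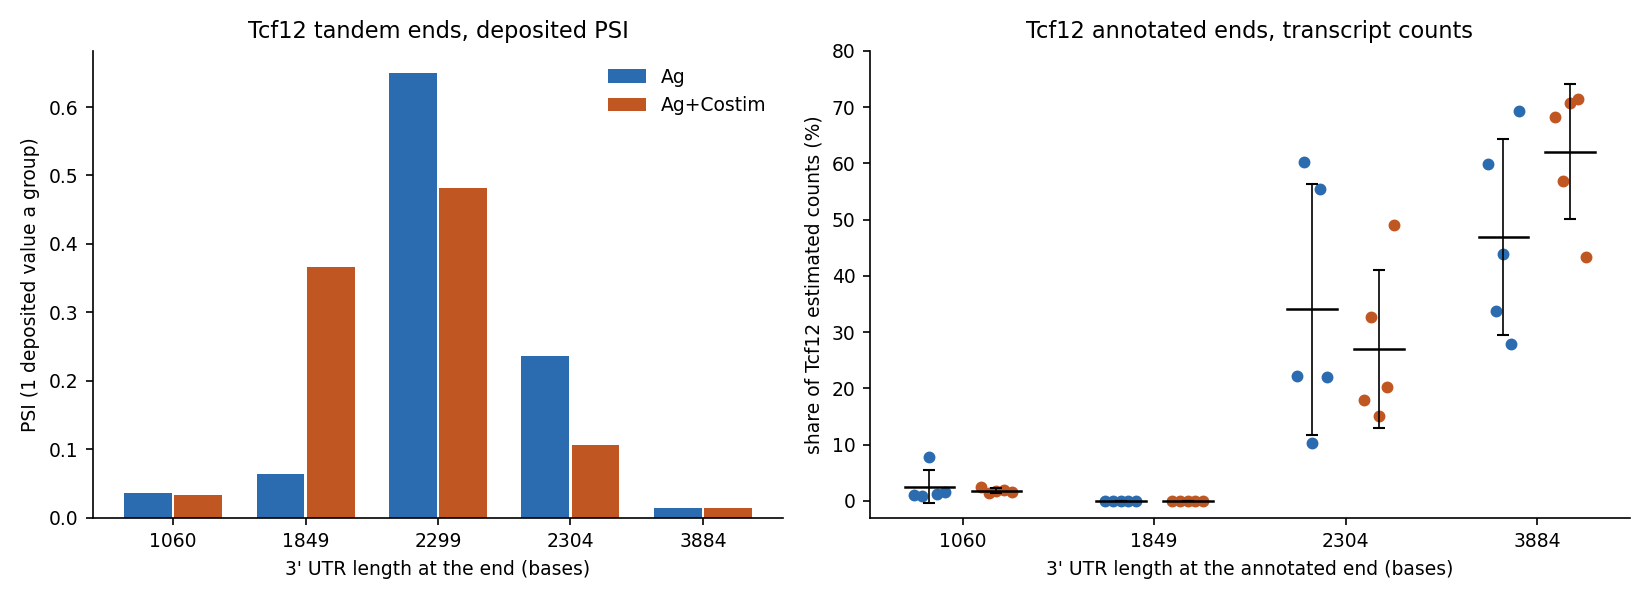
Left, deposited PSI of the 5 tandem ends of Tcf12, a bar for each group, by the length of the 3′ UTR in bases. Right, share of Tcf12 estimated counts on transcripts with each annotated end, points for libraries, lines for means and bars for SDs (n = 5 a group). The 1849-base end has PSI values of 0.0646 (Ag) and 0.366 (Ag+Costim) and no counts on the right, and the 3884-base end has PSI values near 0.01 and shares of 27.9 to 71.4%.

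The distal stretch that separates these readouts, the last 1580 bases of Tcf12-202 (chr9:71842688-71844267), held TGTGTG 25 times on the transcript strand, overlapping matches counted. Of 27418 protein-coding ends with that much sequence, 57.5% held it at least once in their last 1580 bases and 0.558% as many times. The segments of the other 3 ends held it 0, 1 and 0 times. TG-rich repeats are the known preference of TDP-43, the product of Tardbp, which the study followed. Tardbp, named for that reason, averaged 111 ± 35.7 CPM under Ag and 158 ± 15.6 CPM under Ag+Costim (SD, n = 5; edgeR adjusted p = 0.261). The distal end itself had PSI values of 0.0151 in Ag and 0.0144 in Ag+Costim. No binding was examined here and the study's Tardbp-knockout data were not used, so a part of TDP-43 in the Tcf12 ends was not tested here. Of 10 factors of 3′ end formation, Tardbp included, all 10 had a log2 fold change above 0 (8 with the other scalings), with a median of 0.39. Cstf2, a cleavage stimulation subunit, and Cpsf6, a cleavage factor, did not overlap except under upper-quartile scaling, at means of 91.9 and 167 CPM in Ag and 163 and 264 CPM in Ag+Costim (edgeR adjusted p = 0.222 and 0.250). Both were lowest in Ag replicates 1 and 4, the libraries with little cell cycle RNA, at 52.3 and 59.2 CPM for Cstf2 and 96.97 and 111 CPM for Cpsf6, and the part of cell division in these levels was not tested.

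At the start of Tcf12, 1 annotated segment of the first exon (chr9:72111822-72111847) went from a PSI of 0.375 to 0.224. The internal start (chr9:71895930-71896396), where HEBAlt begins, stood at 0.0680 in Ag and 0.0417 in Ag+Costim. In the transcript counts, internal-start transcripts held 3.79, 3.85, 2.85, 3.70 and 2.01% of counts with either start in Ag and 1.35, 1.32, 0.847, 1.503 and 1.79% in Ag+Costim. This was the only 1 of the 22 shares tested whose groups did not overlap (3.24 ± 0.80% against 1.36 ± 0.34%, SD, n = 5 each; exact permutation p = 0.00794, the smallest this design allows). Among protein-coding transcripts alone the difference was 0.61 percentage points lower in Ag+Costim (exact p = 0.278). The 4 internal-start transcripts include Tcf12-217, which retains an intron.

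Transcripts with a retained intron held 17.9, 6.13, 31.9, 16.7 and 5.37% of all Tcf12 counts in Ag and 8.38, 7.33, 5.98, 4.25 and 5.80% in Ag+Costim (exact permutation p = 0.119, 0.0397 without Ag replicate 2 and 0.0238 without Ag replicate 5). They were highest in Ag replicates 1, 3 and 4, which were also the libraries with the most genes detected, 40441 to 51778 against 30340 or fewer in the rest. The part of library composition in these shares was not tested. A 72-base exon inside Tcf12 (chr9:71868999-71869070) was included at 0.225 (Ag) and 0.176 (Ag+Costim). Transcripts that include it held 61.5 ± 21.1% and 69.8 ± 13.3% (SD, n = 5 each) of the counts that span it, the opposite direction to the PSI. The difference of 8.36 points was 2.28 without Ag replicate 4, 2.92 without Ag replicate 2 and 13.6 without Ag+Costim replicate 5. Most counts on these transcripts were those of Tcf12-202, the one with the most distal end. It held 19063 of 19490 in Ag replicate 1 and 2275 of 2690 in Ag replicate 3, so this share is not separate from that end.

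Tcf4 showed the largest differences in transcript form, at low counts. Its estimated counts numbered from 1083 to 6863 a library over 62 annotated transcripts, 7 of which had a count in all 10 libraries. Transcripts that begin at the downstream starts of the short forms held 38.6, 100, 67.9, 14.3 and 84.1% of counts with an upstream or short-form start in Ag, and 12.6, 15.4, 11.4, 9.56 and 9.88% in Ag+Costim. In Ag, 4 libraries were above every Ag+Costim library and Ag replicate 4 was within their range (exact permutation p = 0.0159, unadjusted). The short-form transcript whose start defines this set held 5.63, 61.5, 21.4, 2.83 and 26.4% of all Tcf4 counts in Ag and at most 3.46% in Ag+Costim. Tcf4-204 held means of 19.3% and 4.24%. Long forms stood the other way, with Ag means of 9.15% against 30.1% for Tcf4-202, 2.75% and 12.53% for Tcf4-206, and 7.94% and 22.5% for Tcf4-207. Tcf4-202, Tcf4-206 and Tcf4-207 were each listed at 0 in at least 1 Ag library.

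The 4 Tcf4 events with a PSI difference over 0.1 lay in other places. At the 5′ end of the gene, the start segment chr18:69344146-69344488 went from 0.895 to 0.582 and the 3 bases next to it from 0.103 to 0.418. An alternative donor of 21 bases (chr18:69345919-69345939) went from 0.922 to 0.665, and an alternative acceptor of 3 bases (chr18:69564034-69564036) from 0.824 to 0.685.

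A test of transcript usage was made on the transcript counts, which leaves out the PSI events and Tcf12-221. edgeR's diffSpliceDGE called 29 of 10442 genes (0.278%; Simes adjusted p under 0.05 and a change of mean share over 0.1) and 0 of the 5 members. The unadjusted gene-level p from that fit was 0.247 for Tcf12, 0.257 for Tcf4 and at least 0.974 for Tcf3, Id2 and Id3. Without Ag replicate 4, the library within the Ag+Costim range, the adjusted p of Tcf4 was 0.0545. It was at least 0.763 with any other library left out, and 0.178 with limma diffSplice on all libraries.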

How the data were processed

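The members, gene lists and measures were chosen with earlier results of these data known. Per the labels, reads were aligned to mm10 with HISAT2 2.1.0 and StringTie 2.1.0, and the authors deposited tables of estimated counts per gene and transcript. Estimated counts are not numbers of whole reads, so no counting interval was given. The deposited PSI values are fractions from Whippet, 1 a group, and carry no test; the columns of the authors' own differences and probabilities were not used. The libraries were prepared with SMART-Seq v4 and Nextera XT.

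Estimated counts were used as deposited, in whole numbers. Genes were tested with edgeR 4.0.16 (R 4.3.3; TMM, filterByExpr, quasi-likelihood, Benjamini-Hochberg), with limma 3.58.1 and DESeq2 1.42.0 as alternatives. Levels were given as CPM, and as TPM where the abundance of the members was ranked. Ratios between members were taken on CPM + 1. Shares and ratios were compared by two-sided exact permutation tests, unadjusted. Transcript usage was tested with diffSpliceDGE on transcripts with at least 10 counts in 5 libraries. Both fits were tested on simulated data. There the adjusted p of the usage test alone let through more false calls than its nominal rate, under each fitting option tried, and the simulation was then judged by the full rule, which also asks for a share change over 0.1. Named genes were the 5 members, listed genes past the threshold or, failing that, up to 4 a list at 10 CPM or more that did not overlap, the 3 genes most like each member, transcripts with a mean share of at least 0.1 and events with a PSI difference over 0.1.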

Additional observations from a re-analysis of the deposited data

Results flagged for a closer look

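Of 64 groups of 5 libraries checked for a library far from the others, 2 had one, and chance alone flags about 1 group in 20. The share of Tcf12 counts on the most proximal end, that of Tcf12-218, was 7.88% in Ag replicate 3, the shallowest library, and at most 1.56% in the other Ag libraries. The share of Tcf4 counts on Tcf4-206 was 13.8% in Ag replicate 4, and this transcript was listed at 0 in the other Ag libraries.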

How the results depend on the processing

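Of 936 values recomputed under an alternative, 791 kept their direction and their side of the threshold or moved little, 553 of 630 with a replicate left out and 238 of 306 otherwise. limma voom with library weights gave log2 fold changes of 1.12 for Tcf3, 1.93 for Id2 and -1.01 for Id3, all past the threshold. Tcf12 turned to -0.012 with total counts. Tcf4 turned to -0.14 with DESeq2 size factors, -0.25 with the upper quartile, -0.33 with total counts and -0.12 in DESeq2's Wald test, and ranged from -0.13 to 0.66 with a replicate left out. DESeq2 called 6214 genes and voom 12670. In the lists, DESeq2 and voom called 2 and 3 other Id and bHLH genes, 1 and 8 cofactors, 4 and 13 signal genes, 2 and 11 E protein targets, 3 and 11 Id3-side genes and 1 and 8 factors of 3′ ends, and voom called 6 Id2-side genes, 3 HMG-box genes and 5 factors of the E12 and E47 choice. The cause of these differences was not tested.

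With the replicate number as a block, 0 genes were called and 2419 had an unadjusted p under 0.05. Same-numbered libraries correlated at -0.0997 to 0.113, and only Ag replicate 1 correlated best with its own number, so the numbers were not taken to pair the libraries. A replicate block cannot give an exact p under 0.0625, so under it these differences no longer passed 0.05: 0.64 for Tcf3 and 0.36 for Tcf12 on log2(CPM + 1), and, in percentage points, -1.88 for the Tcf12 internal start, -49.2 for Tcf4 short forms, 5.01 for Tcf3-201, -15.1 for Tcf4-204 and -21.9 for the transcript that defines the Tcf4 short forms. The Tcf12 difference was 0.10 with total counts.

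Other shares moved as follows, in percentage points. Shares of summed counts turned to 0.23 for the end of Tcf12-218, -0.46 for Tcf3-204 and -0.49 for Id2-201. The internal start stood at -0.61 among protein-coding transcripts. Division by transcript length gave 11.8 for Tcf4-202 and -14.99 for Tcf4-204. The usage test called 141 genes with limma diffSplice and 19 with at least 50 counts, and 4 member events passed a PSI difference of 0.2.

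With each replicate left out in turn, the lowest and highest differences in percentage points were 1.90 and 4.33 for the E12 share (4.33 without Ag replicate 2), -1.12 and 0.62 for the end of Tcf12-218 (0.62 without Ag replicate 3), -11.8 and -5.20 for Tcf12 and -16.05 and -6.18 for Tcf4 retained introns, -0.20 and 0.12 for those of Id3, -2.41 and 0.44 for Tcf3-210, 3.80 and 6.17 for Tcf3-201, -11.01 and 1.16 for Tcf12-201, 16.4 and 25.9 for Tcf4-202, 6.01 and 12.53 for Tcf4-206, -19.2 and -9.97 for Tcf4-204, -27.1 and -12.4 for the transcript that defines the Tcf4 short forms, -0.017 and 2.17 for Id2-201, and -0.10 and 0.22 for Id3-201. Differences on log2(CPM + 1) lay between 0.46 and 0.83 for Tcf3, 0.26 and 0.44 for Tcf12, 0.035 and 0.64 for Tcf4, and -0.73 and -0.31 for Id3. The usage test called 6 (without Ag+Costim replicate 5) to 71 genes (without Ag replicate 5). Tcf4 shares rest on 1083 to 6863 estimated counts a library.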
